A study of Mus musculus with 6 samples.

Results

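A set of 10 cytokine receptor and related genes were followed through the response of mouse hepatocytes to the inflammatory cytokine TNF. They were picked by symbol, and all 10 were among the 19764 genes of the deposited table. Il6ra, Il6st, Lifr and Osmr encode receptor chains of the interleukin-6 (IL-6) family, and Il1r1 and Il1rap encode the chains of the IL-1 receptor. Il1rn encodes a secreted antagonist of that receptor. Il4ra, Il10rb and Il15 belong to neither family: Il4ra and Il10rb are receptor chains for IL-4 and for IL-10 and related cytokines, and Il15 is a secreted cytokine. The set thus held 8 receptor chains and 2 secreted proteins.

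Primary hepatocytes, the parenchymal cells of the liver taken directly from the animal, came from Bl6/N mice. They were plated at 400000 cells per well and spent 16 h in a low-serum starvation medium with 5 mM glucose. Both groups then received 1 µM corticosterone, which activates the glucocorticoid receptor, and 10 µM WY-14643, which activates the fatty acid sensor PPARα, for 8 h. Alongside these agents the 3 Control libraries received vehicle and the 3 TNF libraries 1 ng/ml TNF. The labels give neither the age nor the number of animals, and there was no group without corticosterone and WY-14643, so each value below describes TNF on top of these agents. Nor do they name the animal or culture behind each replicate, so the spread behind each p-value may be technical.

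Receptors of the IL-6 family work in pairs or larger complexes around a shared signalling chain, gp130, which Il6st encodes. IL-6 binds the chain encoded by Il6ra before it engages gp130, whereas leukaemia inhibitory factor and oncostatin M bring gp130 together with the products of Lifr or Osmr, and the complexes signal through JAK kinases and STAT3. The IL-1 receptor pairs a ligand-binding chain (Il1r1) with an accessory chain (Il1rap) and signals through MyD88 and IRAK kinases to NF-κB. In the liver both families are best known for driving the acute phase response, the release of plasma proteins during inflammation.

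Levels are given as CPM, read counts scaled to library size by the authors, over the whole gene, introns included. Changes are TNF minus Control on the log2(CPM + 1) scale, which understates the change of genes near 1 CPM. Each was tested in 2 limma fits over 12293 genes, an unpaired fit and a blocked fit that compares libraries of the same replicate number. Adjusted p-values are limma's with Benjamini-Hochberg adjustment over all tested genes, and "rose" and "fell" are used only of genes under 0.05 in the blocked fit. Library totals ran from 17612060 to 25114289 reads, and each gene of the set had between 9 and 9097 reads per library.

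All 10 genes passed the filter on low reads. In the blocked fit 5 rose (Osmr, Il1rn, Il15, Il4ra and Il10rb), 3 fell (Il6ra, Lifr and Il1rap) and 2 did not pass (Il6st and Il1r1). The same fit called 9.4% of all tested genes higher and 11.2% lower. Without the block none of the 10 passed in either direction, and that unpaired fit called 0.358% of tested genes higher and 0.0732% lower. At an unadjusted unpaired limma p under 0.05, 4 of the genes were higher and 1 was lower, beside 4.44% and 4.31% of all tested genes. Unpaired limma-voom on the reads called 0 of the 10 higher and 0 lower. Every TNF library lay above every Control library for Osmr, Il10rb and Il15, and below for Il6ra. Among all tested genes 6.59% were separated upward in this way and 6.66% downward. The median change of the 10 genes was 0.20, beside -0.01 over all tested genes, and their median absolute change was 0.28 beside 0.09.

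**Figure D1:**
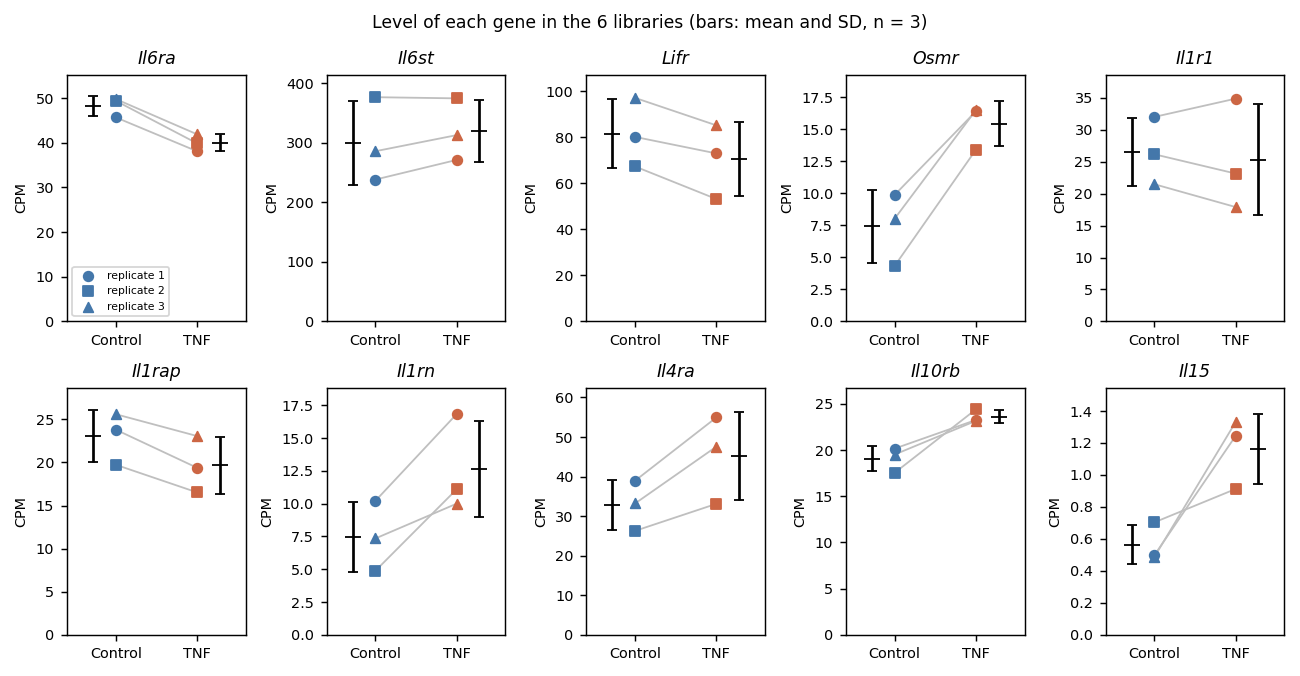
Level in CPM of each gene in the 3 Control and 3 TNF libraries; points are libraries, lines join libraries of the same replicate number, and bars beside them give the mean and SD (n = 3). Osmr, Il10rb and Il15 separate upward and Il6ra downward, while for Il6st, Lifr, Il1r1, Il1rap, Il1rn and Il4ra the groups share part of their range.

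Among the IL-6 family receptors, Osmr, the signalling partner of gp130 for oncostatin M, showed the largest change of the 10 genes. It was at 9.89, 4.34 and 8.03 CPM in Control 1, 2 and 3 and at 16.4, 13.4 and 16.5 CPM in TNF 1, 2 and 3. Control 2 was the lowest of its group and TNF 2 of its own, and the groups did not overlap. The mean rose from 7.42 ± 2.82 to 15.4 ± 1.76 CPM (SD, n = 3), a 2.08-fold difference and a log2 change of 1.02. The blocked adjusted p was 3.4e-05 (SE 0.12) and the unpaired one 0.217 (SE 0.26). The changes in the 3 pairs, 0.68, 1.43 and 0.96, gave an SE of 0.22, wider than the blocked SE, which draws on a variance shared between genes. An absolute change smaller than that of Osmr was found in 99.5% of tested genes. Osmr occupies chr15:6813577-6874313 on the minus strand (mm10), and 18.9% of the counted stretch is exonic in GENCODE release M21.

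Lifr, the corresponding partner for leukaemia inhibitory factor, moved the other way. Its levels were 80.2, 67.3 and 97.1 CPM in the Control libraries and 73.0, 53.2 and 85.2 CPM in the TNF libraries. Each TNF library was below the Control library of its number, but the groups overlapped, since replicate 2 was low and replicate 3 high in both. The mean fell from 81.5 ± 14.9 to 70.4 ± 16.1 CPM, a log2 change of -0.22, with pair values of -0.13, -0.33 and -0.19. This passed with the block (adjusted p = 0.00328, SE 0.046) and not without it (adjusted p = 0.934, SE 0.19). The unpaired change was -0.032 without TNF 2, -0.086 without Control 3, -0.35 without Control 2 and -0.37 without TNF 3. The counted interval spans chr15:7140542-7197489 on the plus strand, and 49928 bases of the longer GENCODE gene lie outside it.

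Osmr and Lifr encode alternative partners of gp130, lie on the same chromosome and changed in opposite directions, so the 250 bases before the start of each counted interval are shown for comparison, 5′ to 3′ on the gene's own strand. They are from RefSeq on GRCm38.p6, the assembly that mm10 denotes.
Osmr, chr15:6874314-6874563, minus strand: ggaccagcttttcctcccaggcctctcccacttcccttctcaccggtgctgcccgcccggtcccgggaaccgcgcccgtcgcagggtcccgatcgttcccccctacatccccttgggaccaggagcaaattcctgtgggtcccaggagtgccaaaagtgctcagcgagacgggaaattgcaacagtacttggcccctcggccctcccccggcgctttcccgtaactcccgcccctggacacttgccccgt
Lifr, chr15:7140292-7140541, plus strand: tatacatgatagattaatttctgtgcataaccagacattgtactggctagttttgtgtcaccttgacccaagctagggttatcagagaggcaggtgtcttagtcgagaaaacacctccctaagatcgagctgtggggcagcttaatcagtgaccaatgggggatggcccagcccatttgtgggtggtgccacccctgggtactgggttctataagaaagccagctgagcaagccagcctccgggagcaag
With the first 50 transcribed bases included, the Osmr window was 66.0% G or C with 22 CpG pairs and the Lifr window 53.3% with 4. The median over 32851 RefSeq promoters of that length was 52.7% and 7. A second RefSeq start of Lifr, 10970 bases upstream and outside the counted interval, lay in a window of 81.3% with 53 CpG pairs.

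Divided by counted length, Osmr stood at 0.116, 0.0605 and 0.0775 of the level of Lifr in the Control libraries and at 0.211, 0.237 and 0.182 in the TNF libraries. The ratio was higher with TNF in each pair, by 1.82, 3.91 and 2.34-fold, and the groups did not overlap. Its exact permutation p was 0.1 (two-sided), the smallest that 3 libraries against 3 can give. The permutation, here and for the ratios below, ignored the pairs. This ratio and the 3 other ratios given below were chosen after the values were seen.

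Il6ra, the IL-6 binding chain, gave the tightest of the falls. Its levels were 45.7, 49.4 and 49.8 CPM in Control and 38.1, 39.9 and 41.9 CPM with TNF, so that the highest TNF library was below the lowest Control library. The mean fell by 17.3%, from 48.3 ± 2.26 to 40.0 ± 1.90 CPM. The 3 pairs lay close together at -0.26, -0.30 and -0.24, around a log2 change of -0.27. Its adjusted p was 0.00121 with the block (SE 0.049) and 0.285 without it (SE 0.076). Il6ra lies at chr3:89869324-89913196 on the minus strand, and GENCODE extends the gene by a further 5265 bases at its 3′ end that the counted interval leaves out. Since Il6ra is the fall whose groups did not overlap, the 250 bases before its start are given as well.
Il6ra, chr3:89913197-89913446, minus strand: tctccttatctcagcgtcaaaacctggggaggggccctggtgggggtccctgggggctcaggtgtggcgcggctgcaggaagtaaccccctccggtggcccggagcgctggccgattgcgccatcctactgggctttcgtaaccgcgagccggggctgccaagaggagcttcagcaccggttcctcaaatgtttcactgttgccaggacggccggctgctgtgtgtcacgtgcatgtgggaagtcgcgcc
That window held 25 CpG pairs and was 66.0% G or C with its 50 transcribed bases.

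Il6st, which encodes gp130 itself, was the most abundant gene of the set. It measured 238, 376 and 286 CPM in Control and 271, 374 and 313 CPM with TNF. Replicate 2 was the highest and replicate 1 the lowest in both groups, and the groups overlapped almost fully. The means were 300.0 ± 70.2 CPM in Control and 319 ± 52.0 CPM with TNF, and the log2 change of 0.10 did not pass in the blocked fit (adjusted p = 0.0690, 95% interval 0.02 to 0.18) or in the unpaired fit (adjusted p = 0.995). Without pair 2, in which the change was -0.01, the blocked adjusted p was 0.00684, and under median-of-ratios scaling it was 0.0429. The gene lies at chr13:112464070-112506860 on the plus strand. The level of Il6ra relative to Il6st per counted length was 0.162 ± 0.0304 in Control and 0.124 ± 0.0176 with TNF. This ratio was lower in each pair but overlapped between groups (exact permutation p = 0.3, two-sided, ignoring the pairs).

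Of the IL-1 receptor chains, the ligand-binding chain Il1r1 showed no change that passed. It was at 32.0, 26.1 and 21.5 CPM in Control and 34.8, 23.1 and 17.9 CPM with TNF. Replicate 1 was highest and replicate 3 lowest in both groups, and pair 1 went up (0.12) while pairs 2 and 3 went down (-0.17 and -0.25). The means were 26.5 ± 5.27 and 25.3 ± 8.68 CPM. The blocked log2 change of -0.10 had a 95% interval of -0.26 to 0.06 and an adjusted p of 0.404, and the unpaired adjusted p was 0.998. Its counted interval covers chr1:40225080-40316177 on the plus strand, of which 5.80% is exonic. GENCODE has another gene entry, Gm38070, that overlaps it on the same strand by 6480 bases, so reads of the 2 cannot be told apart there.

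The accessory chain Il1rap was at 23.8, 19.7 and 25.6 CPM in Control and 19.4, 16.5 and 23.1 CPM with TNF. Each TNF library was below its numbered Control library, and the groups overlapped. Il1rap fell from 23.0 ± 3.01 to 19.7 ± 3.28 CPM (log2 -0.22), with a blocked adjusted p of 0.0345 and an unpaired one of 0.862. The blocked call was lost without pair 1 (adjusted p = 0.155), without pair 2 (adjusted p = 0.116) and without the filter on low reads (adjusted p = 0.0751). Its unpaired change was -0.11 without TNF 2, -0.15 without Control 3 and -0.34 without TNF 3. Il1rap lies at chr16:26581705-26725147 on the plus strand, with 10466 of its 143443 bases not counted. The ratio of Il1r1 to Il1rap per counted length was 1.71 ± 0.418 in Control and 1.93 ± 0.752 with TNF, and the groups overlapped (exact permutation p = 0.8, two-sided).

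Il1rn, the receptor antagonist that occupies Il1r1 without signalling, rose. Its levels were 10.2, 4.88 and 7.35 CPM in Control and 16.8, 11.1 and 10.0 CPM with TNF. Control 1 lay slightly above TNF 3, so the groups overlapped, although TNF was higher in each pair. The mean went from 7.48 ± 2.67 to 12.7 ± 3.67 CPM, 1.69-fold higher, with a log2 change of 0.70. The adjusted p was 0.000543 in the blocked fit (SE 0.12) and 0.512 in the unpaired fit (SE 0.27). Over the pair values of 0.67, 1.04 and 0.40 the SE was 0.19, and without Control 2 the unpaired change was 0.46. Il1rn occupies chr2:24336860-24351491 on the plus strand, and at 37.8% it had the largest exonic share of the 10 counted intervals.

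RefSeq places starts of Il1rn at the beginning of the counted interval and 8431 and 8511 bases into it, and a second start of Il1r1 lies 41506 bases into its counted interval. The level over an interval does not separate these transcripts. The sequence before the outer Il1rn start and that before the inner Il1r1 start are shown, the latter because it held a match to the NF-κB consensus (capitals).
Il1rn, chr2:24336610-24336859, plus strand: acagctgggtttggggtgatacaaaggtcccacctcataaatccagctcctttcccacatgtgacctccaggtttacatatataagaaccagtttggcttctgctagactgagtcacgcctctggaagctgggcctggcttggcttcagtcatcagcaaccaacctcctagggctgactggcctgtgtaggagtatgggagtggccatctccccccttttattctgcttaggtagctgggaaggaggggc
Il1r1, chr1:40266336-40266585, plus strand: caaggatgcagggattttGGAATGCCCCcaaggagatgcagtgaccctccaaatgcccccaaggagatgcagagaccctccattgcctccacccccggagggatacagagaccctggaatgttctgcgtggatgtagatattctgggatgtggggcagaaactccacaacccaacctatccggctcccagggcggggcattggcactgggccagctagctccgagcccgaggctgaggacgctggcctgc
The window of the outer Il1rn start held 1 CpG pair in 300 bases, and those of the inner starts held 5 and 4.

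The ratio of Il1rn to Il1r1 per counted length was 1.99, 1.16 and 2.13 in Control and 3.01, 2.99 and 3.48 with TNF. All 3 TNF libraries were above all 3 Control libraries, and the exact permutation p was 0.1 (two-sided), again the smallest possible.

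Of the 10 genes, 8 matched RefSeq promoters, with 12 windows of 300 bases, 2 of which overlap (both inner Il1rn starts). Il10rb and Il15 had no match. The STAT motif TTCNNNGAA was in 8.30% of all promoters and in 0 of the 12 windows, and the glucocorticoid response element GAACANNNTGTTC in 0.0578% and in 0. Both strands were searched. The NF-κB consensus was in 4.51% of all promoters and in 2 of the 12 windows, at chr1:40266354-40266363 before the inner Il1r1 start (GGAATGCCCC, bases -232 to -223) and at chr7:125552291-125552300 after the Il4ra start (GGAAAGCCCC, bases 20 to 29). Both matches read as the consensus on the opposite strand. A match describes letters in the window and not a bound site.

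Of the genes outside both families, Il4ra, the chain shared by the IL-4 and IL-13 receptors, rose. It was at 38.9, 26.3 and 33.2 CPM in Control and 54.9, 33.1 and 47.6 CPM with TNF. Replicate 1 was highest and replicate 2 lowest in both groups, so the ranges overlapped although each pair rose by a similar amount (0.49, 0.32 and 0.51). Il4ra went from 32.8 ± 6.35 to 45.2 ± 11.1 CPM, 1.38-fold higher (log2 0.44). The blocked adjusted p was 6.1e-05 (SE 0.056) and the unpaired one 0.639 (SE 0.21). The unpaired change was 0.29 without TNF 1 and 0.29 without Control 2. Il4ra is at chr7:125552282-125579474 on the plus strand.

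Il10rb, the accessory chain that receptors for IL-10, IL-22 and type III interferons share, was at 20.2, 17.5 and 19.5 CPM in Control and 23.3, 24.4 and 23.2 CPM with TNF. The TNF libraries lay within a narrow band above all Control libraries. Il10rb rose from 19.1 ± 1.37 to 23.6 ± 0.695 CPM (log2 0.30), with adjusted p-values of 0.0106 blocked and 0.365 unpaired. Without pair 2, the pair with the largest change (0.45), the blocked change was 0.22 and the adjusted p 0.116. It lies at chr16:91406235-91425834 on the plus strand, and GENCODE has a protein-coding gene, Gm21970, that overlaps it on the same strand by 13217 bases, so reads of the pair cannot be told apart there.

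Il15, a cytokine that sustains natural killer and memory T cells, was close to the limit of detection. It had 9, 17 and 10 reads in Control and 26, 17 and 27 reads with TNF, and the 95% Poisson intervals ran from 4.12 to 17.1 for the lowest library and from 17.8 to 39.3 for the highest. In CPM these were 0.497, 0.703 and 0.487 against 1.24, 0.912 and 1.33, with no overlap, although replicate 2 had 17 reads in both groups. The mean of 0.562 ± 0.122 rose to 1.16 ± 0.221 CPM, 2.07-fold, with log2 changes of 0.47 on the log2(CPM + 1) scale and 1.02 in the authors' deposited table. The blocked adjusted p was 0.0398 and the unpaired one 0.461. It was lost without pair 1 (0.128), without pair 3 (0.210), with no filter on low reads (0.0511) and with a pseudocount of 5 CPM (0.0608), all blocked limma values. Il15 lies at chr8:82331624-82402586 on the minus strand, and only 2.29% of that stretch is exonic. Such intervals cover counting error only.

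**Figure D2:**
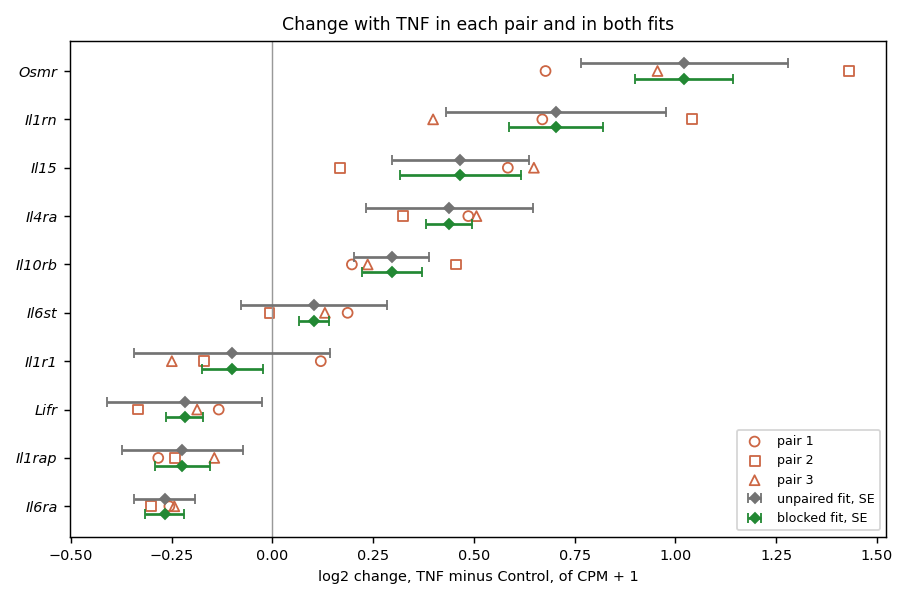
Change with TNF on the log2(CPM + 1) scale for each gene; open symbols are the 3 pairs, filled symbols the estimates of the unpaired and blocked limma fits with their SE. Osmr (1.02) and Il1rn (0.70) are at the top with widely spread pairs, Il6ra (-0.27) is at the bottom with pairs close together, and the pairs of Il6st and Il1r1 lie on both sides of 0.

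For most of the genes same-numbered libraries shared a level, which the blocked fit takes out and the unpaired fit does not. The same replicate number was lowest in both groups for 7 of the 10 genes and highest in both for 7. No share over all tested genes was taken for these counts. Il10rb and Il15 shared neither number, and their SEs were 0.074 and 0.15 blocked and 0.093 and 0.17 unpaired. The cause of the gap between the fits was not tested. Replicate 2 was lowest in both for Lifr, Osmr, Il1rap and Il4ra. By the authors' deposited table, which rests on the same 6 libraries, an adjusted p under 0.05 was reached by 8 of the 10 genes. All 10 had the sign found here, which is not a separate check. The share of all genes called there was not computed, so the 8 is not a result about these genes. The adjusted p in the authors' deposited table was 1.83e-16 for Osmr, 3.11e-06 for Il6ra, 0.190 for Il6st and 0.551 for Il1r1.

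Levels of different genes were compared per kilobase of counted length. In Control, Il6st stood first at 7.01 ± 1.64 CPM per kb, followed by Lifr (1.43 ± 0.262), Il4ra (1.21 ± 0.233), Il6ra (1.10 ± 0.0516) and Il10rb (0.973 ± 0.0697). Il1rn (0.511 ± 0.183), Il1r1 (0.291 ± 0.0579), Il1rap (0.173 ± 0.0226), Osmr (0.122 ± 0.0465) and Il15 (0.00792 ± 0.00172) came after. The libraries of neighbours overlapped for Lifr and Il4ra, Il4ra and Il6ra, Il1rn and Il1r1, and Il1rap and Osmr. With TNF, Il4ra stood above Lifr, Il10rb above Il6ra and Osmr above Il1rap, at 0.254 ± 0.0290 against 0.148 ± 0.0247 CPM per kb, the Osmr and Il1rap libraries now without overlap. Il6st was 4.90 times its next neighbour in Control and 4.49 times with TNF. Because introns were counted and exonic shares ran from 2.29% to 37.8%, these levels are not transcript abundances.

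**Figure D3:**
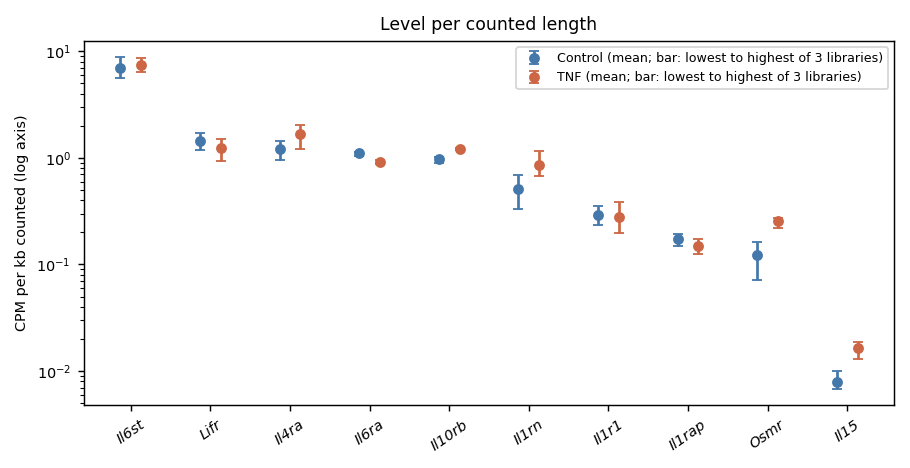
Level per counted kilobase on a log axis, ordered by the Control mean; points are means and bars run from the lowest to the highest of 3 libraries. Il6st stands alone at the top and Il15 at the bottom, and Osmr crosses above Il1rap with TNF.

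Ligand genes of these receptors gave few reads, and ligand protein was not measured. The tested ligand genes of the IL-6 and IL-1 families were not all below the receptor genes per counted kilobase. In Control, Ctf1 (0.465 CPM per kb), Il11 (0.173) and Il18 (0.164) lay above Osmr (0.122), and Lif (0.0713) and Il33 (0.0388) below it. Without division by length Ctf1 (2.54 CPM), Il11 (1.81) and Il18 (2.70) were below Osmr (7.42), so this order depends on the counted length. Of the IL-6 family ligands matched in the table, 3 of 8 had enough reads to test, and none passed in the blocked limma fit, in the unpaired fit or in limma-voom; at an unadjusted blocked p under 0.05, 1 was higher. Lif, the ligand of Lifr, was at 1.07 ± 0.153 CPM in Control and 1.74 ± 0.523 CPM with TNF (blocked limma adjusted p = 0.0657), and Ctf1 and Il11 were at 2.54 ± 0.617 and 1.81 ± 0.344 CPM in Control. Il6 had 6 reads over all 6 libraries and Osm, the ligand of Osmr, had 0, and a count of 0 allows up to 3 reads, or 0.124 to 0.166 CPM by library. Of the IL-1 family ligands, Il1b had 15 reads and Il1a 28 over the 6 libraries, too few to test. Il18 and Il33 were tested and did not pass (0 of 2 at an unadjusted blocked p under 0.05, and 0 by limma-voom). The ligands Il4 and Il10 had 18 reads and 1 read.

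Partner chains ranged from abundant to nearly absent, and 11 of the 18 genes of the IL-4, IL-10 and IL-15 list had too few reads to test. Il10ra, the ligand-binding partner of Il10rb for IL-10, had 3 reads over the 6 libraries, and Il2rb and Il2rg, the signalling chains for IL-15, had 5 and 45. Il13ra1, which pairs with the Il4ra chain, rose from 32.8 ± 5.83 to 44.1 ± 2.6 CPM (log2 0.43, blocked limma adjusted p = 0.000286, unpaired 0.347), without overlap between the groups. Il20rb also rose (log2 0.35, unpaired limma adjusted p = 0.639), and the other 5 tested genes of that list did not pass. Among these Il15ra, the chain that presents IL-15, was at 29.0 ± 3.50 CPM in Control and 27.6 ± 2.93 CPM with TNF. The list thus had 2 rises in 7 tested genes, where the blocked fit called 9.4% of all tested genes higher and 11.2% lower. The 5 tested receptors that use gp130 or its relatives, such as Il11ra1 and Lepr, gave no blocked or unpaired limma call and none by limma-voom, with 1 higher and 1 lower at an unadjusted blocked p under 0.05. Of the other IL-1 family proteins, Il18bp, a soluble IL-18 trap, rose (log2 0.43) and Sigirr, an inhibitory receptor, fell (log2 -0.27). Both were blocked calls only, and they were the 2 tested genes of their list, beside the same 9.4% and 11.2% of all tested genes.

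The list of JAK-STAT signalling genes covered all these receptors and not the IL-6 family alone. Of its 21 tested genes 3 rose and 3 fell in the blocked fit, beside 9.4% and 11.2% of all tested genes, with a median change of -0.02. Socs2, a feedback inhibitor of cytokine receptors, was at 6.74, 7.03 and 9.93 CPM in Control and 16.3, 30.5 and 27.1 CPM with TNF. Its groups lay far apart, and the log2 change of 1.5 had an adjusted p of 1.01e-06 blocked and 0.0684 unpaired (limma). Cish (0.57), a relative of Socs2, and the kinase Tyk2 (0.30) rose as well, while the adaptors Gab1 (-0.29), Irs2 (-0.27) and Irs1 (-0.23) fell. Socs3, the feedback inhibitor that binds gp130, was at 1.84 ± 0.791 CPM in Control and 1.63 ± 0.501 CPM with TNF and did not pass (blocked adjusted p = 0.676). Neither did Jak1 (0.09) or Stat3 (-0.10), the chief kinase and transcription factor below gp130.

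Below the IL-1 receptor, 2 of 17 tested MyD88 pathway genes rose and 1 fell in the blocked fit, counts near the 9.4% and 11.2% called over all tested genes. Irak3, which restrains IRAK signalling, was at 12.8, 7.74 and 12.8 CPM in Control and 37.5, 29.4 and 46.6 CPM with TNF. Each TNF library was above each Control library, and its log2 change of 1.69 passed in both limma fits (adjusted p = 3.45e-09 blocked, 0.0366 unpaired). The adaptor Myd88 rose (0.37) and the ubiquitin ligase Peli2 fell (-0.28). Irak1, Irak2, Irak4 and Traf6 did not pass.

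Genes of receptor shedding and trafficking gave 4 rises and 3 falls among 10 tested in the blocked fit, which called 9.4% of all tested genes higher and 11.2% lower. Adam17, the protease that cuts several cytokine receptors, Il6ra among them, from the cell surface, was at 48.2, 51.3 and 52.7 CPM in Control and 72.9, 74.0 and 76.7 CPM with TNF. The groups were well separated, and its log2 change of 0.55 passed in both limma fits (adjusted p = 6.52e-07 blocked, 0.0273 unpaired). Rhbdf2 (0.25) and Rhbdf1 (0.17), which carry Adam17 to the surface, and the stress sensor Ern1 (0.18) rose, and Frmd8 (-0.13), Vps25 (-0.14) and Stub1 (-0.14) fell.

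Acute phase genes on which IL-6 or IL-1 are known to act split in both directions. Of 26 tested, 8 rose and 6 fell in the blocked fit, where 9.4% of all tested genes were called higher and 11.2% lower. None passed in the unpaired limma fit, and 0 did by unpaired limma-voom. At an unadjusted unpaired limma p under 0.05, 4 were higher and 1 was lower, beside 4.44% and 4.31% of all tested genes. The median change was -0.01. The haemoglobin scavenger Hp (0.77), Crp (0.78), the amyloid component Apcs (0.75), Hpx (0.45), Lbp (0.42), Cp (0.31), C3 (0.20) and Cfb (0.14) rose. The fibrinogen chains Fgb (-0.21) and Fga (-0.22) fell, as did Serpina3n (-0.16), Serpina3m (-0.19), Itih3 (-0.16) and the transcription factor gene Cebpd (-0.49). Saa1 and Lcn2, at 652 ± 195 and 1177 ± 179 CPM in Control, did not pass (log2 -0.07 and 0.00).

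**Figure D4:**
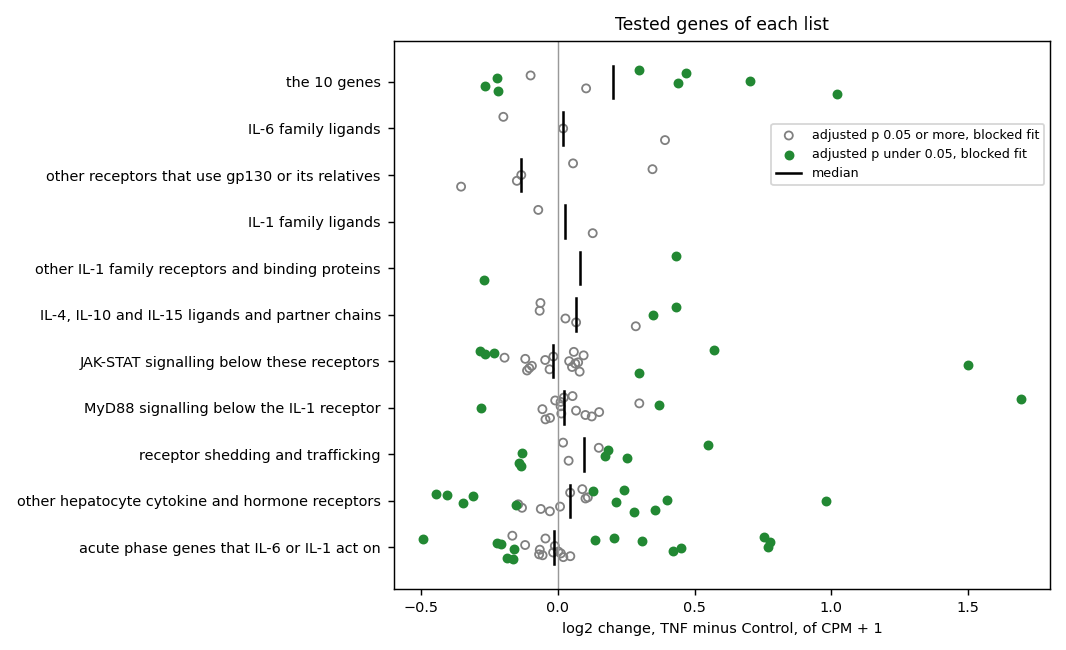
Change with TNF on the log2(CPM + 1) scale for the tested genes of each list; each point is a gene, filled where the blocked limma adjusted p is under 0.05, and vertical bars are medians. List medians lie between -0.13 and 0.09 and that of the 10 genes at 0.20; Irak3 (1.69) and Socs2 (1.5) lie farthest to the right.

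By Pearson r of log2(CPM + 1) over the 6 libraries, among 9806 other genes at 5 CPM or more, the patterns most like that of Osmr were those of Abcb1a (r = 0.996), Tmem128 (0.995) and Ces2c (0.994). Of those genes 62 exceeded 0.95. For Il1rn the nearest were Pla2g12b (0.997), Ctsz (0.996) and Arhgef40 (0.996), with 68 genes over 0.95. For Il15, Nedd1 (0.977) and Atg3 (0.972) led among 4. All values come from the same 6 libraries and share their depth and pairing, so they are a description only.

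Markers of other liver cells were measured beside these genes, because several of the receptors are also expressed outside hepatocytes. Hepatocyte markers summed to 35871 to 54902 CPM in Control and 33863 to 49801 CPM with TNF, mostly Alb (34932 and 33298 CPM in the means). Of these 12 markers 0 rose and 6 fell, where the blocked fit called 9.4% of all tested genes higher and 11.2% lower. In the means Cps1 went from 1975 to 737 CPM and Arg1 from 465 to 241 CPM. Of 18 macrophage genes only Cd68 and Mrc1 had enough reads to test, and neither passed; their sum was 145 to 235 and 147 to 236 CPM, nearly all from Cd68 (180 and 179 CPM in the means), while Clec4f and Timd4 had 0 reads in Control and 1 read each with TNF and Ccr2 had 0 in all. Endothelial markers, 14 of 15 tested, were present at 136 to 236 CPM in Control and 150 to 242 CPM with TNF, and in the blocked fit 2 were higher and 1 lower, with Stab1 at 19.8 CPM in Control and 36.3 CPM with TNF. Stellate cell markers, 5 of 11 tested, summed to 19.9 to 70.3 and 21.1 to 47.8 CPM, mostly Reln, and 1 was lower. Cholangiocyte markers, 5 of 8 tested, summed to 52.5 to 62.3 and 55.7 to 75.7 CPM, with 1 higher and 1 lower. Lymphocyte and neutrophil markers stayed under 1 CPM in sum in every library, and 5 of 13 had 0 reads. In bulk RNA, fewer cells of a type and less RNA per cell cannot be told apart, and the part of these cells in the changes of Osmr, Il1rn and the other genes was not tested.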

How the data were processed

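PolyA RNA of 6 hepatocyte samples, 3 Control and 3 TNF, was sequenced (paired-end, NEBNext Ultra, from 500 ng of total RNA), per the labels' protocols. Sample titles gave the group and replicate number. The submitters' processing notes name STAR 2.6.1a and the genome build mm10. What counted the reads, over which annotation and with which strand setting, is not given in the sources used here, so antisense reads (Gm42809 in Il6ra, Gm20319 in Il1rap, Gm44876 in Il4ra) cannot be told apart. The deposited values per library were log2 CPM with a prior that the authors had added. Beside them, the authors' deposited table held log2 fold changes, a likelihood ratio score, p-values and adjusted p-values from a model not given in the sources used here. Counted length equalled the whole gene span for 85.0% of genes, so introns were counted.

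Subtracting the shared floor of -3.35 (0.0978 CPM) on the linear scale gave whole reads for 100.0% of 118584 values (relative tolerance 1e-06). Libraries held 17612060 to 25114289 reads and were not duplicates (chi-square per degree of freedom 14.9 to 70.8). Genes with 10 scaled reads in 3 libraries and 15 in total were tested (12293; 7471 were not). Because the unit was log2, limma 3.58.1 (R 4.3.3) with a trended prior variance was fitted to log2(CPM + 1), two-sided, with Benjamini-Hochberg adjustment at 0.05; it was tested on simulated data first. Deviations from group means correlated at 0.784, 0.789 and 0.793 for same-numbered Control and TNF libraries and at -0.472 to -0.335 for others. Deviations within a group cancel out, so the negative values follow from the positive ones and are not separate evidence of pairing. On the positive values the numbers, which come from the titles, were taken to pair the samples. The fit with the replicate block stands beside the unpaired one. Blocked SEs lean on the variance prior (2 residual degrees of freedom of 13.6 in total).

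All 10 genes are named, and of the other lists the genes past a threshold, those at the highest level and ligands at or near 0. The genes and lists were chosen with earlier results of these data known. Alternatives were other pseudocounts, filters, scalings, limma-voom, the block and leaving out libraries; the block combined with the 1 CPM filter and with the deposited log2 values was added after seeing the data.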

Additional observations from a re-analysis of the deposited data

How the results depend on the processing

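For the 10 genes, the unpaired counts of 0 higher and 0 lower were the same under every unpaired alternative run. The replicate block gave 5 higher and 3 lower, and the same with the deposited log2 values, limma-voom or a pseudocount of 0.1 CPM; it gave 6 and 3 with median-of-ratios scaling, 4 and 3 with the 1 CPM filter (where Il15 was not tested) or a pseudocount of 5 CPM, and 4 and 2 with no filter. Leaving out a pair gave 4 to 5 higher and 2 to 3 lower. Il6ra, Lifr, Osmr, Il1rn and Il4ra passed in all 10 blocked alternatives, Il10rb in 9, Il1rap in 7, Il15 in 5 of 9, Il6st in 2 and Il1r1 in 0. Blocked fits with a pair left out hold fewer libraries and lean still more on the variance shared between genes. The blocked limma adjusted p of Osmr then reached 2.3e-16, below the 3.4e-05 with all pairs, so passing there is a weak check. In the unpaired fit the change of Il6st ranged from -0.050 to 0.28 and that of Il1r1 from -0.35 to 0.11 with 1 library left out; the sign of Il6st turned without Control replicate 1 (-0.050) and without TNF replicate 2 (-0.018), and that of Il1r1 without Control replicate 1 (0.039) and without TNF replicate 3 (0.11); the cause was not tested. Over the same 6 settings Lifr ranged from -0.37 to -0.032 and Il1rap from -0.34 to -0.11. Il1rn ranged from 0.46 to 0.93 and Il4ra from 0.29 to 0.64, all with no change of sign. Il6ra (-0.31 to -0.23), Osmr (0.72 to 1.24), Il10rb (0.24 to 0.34) and Il15 (0.41 to 0.55) stayed within 1.5 times of their change with all 6 libraries. Over all tested genes, the unpaired counts of 44 higher and 9 lower were 28 and 3 with no filter, and 8 to 25 and 0 to 5 with 1 library left out. With the replicate block they were 1156 and 1374, 1139 and 1377 with the 1 CPM filter, 1135 and 1361 on the deposited log2 values, and 1156 and 1364 by limma-voom. They were 1290 and 1282 with median-of-ratios scaling, 832 and 911 with no filter, 1135 and 1362 at a pseudocount of 0.1 CPM, 1135 and 1363 at 5 CPM, and 850 to 1081 and 942 to 1228 with a pair left out (980 and 1178 without pair 3). Median-of-ratios scaling shifted the median of all genes by 0.01. Depth limits Il15 most.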

Other observations

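Other cytokine and hormone receptors of hepatocytes moved in both directions. Of 21 tested, 7 rose and 5 fell in the blocked limma fit, beside 9.4% and 11.2% of all tested genes, and 1 passed unpaired. That gene was Ifngr2, the accessory chain of the interferon γ receptor. It was at 68.2, 64.9 and 61.3 CPM in Control and 125, 135 and 126 CPM with TNF, a log2 change of 0.98 (limma adjusted p = 0.00758 unpaired, 2.36e-09 blocked), about that of Osmr and from a higher level with tighter libraries. Its partner Ifngr1 rose by 0.40 in the blocked fit, with replicate 2 the highest in both groups and an unpaired adjusted p of 0.883. Tnfrsf1b, the second TNF receptor, rose (0.28), while Tnfrsf1a, the main one, did not pass (log2 -0.03, blocked limma adjusted p = 0.707). Tgfbr2 (0.35), Bmpr1a (0.24), Il17ra (0.21) and Bmpr2 (0.13) also rose.

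The 5 falls were in the glucagon receptor Gcgr (-0.41), the growth hormone receptor Ghr (-0.31), the FGF receptor Fgfr4 (-0.45), the insulin receptor Insr (-0.15) and Il17rb (-0.35). Gcgr and Ghr had no overlap between the groups. Met (0.01) and Egfr (0.04), at 179 ± 24.3 and 307 ± 64.5 CPM in Control, did not pass. This list, like the others, was chosen with earlier results of these data known.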
